A study of Homo sapiens with 12 samples.

Results

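The genes described are 10 components of the soluble nuclear transport machinery: the importins KPNA2, KPNB1, IPO5, IPO7, IPO8 and TNPO1, the exportins XPO1, XPOT and CSE1L, and the GTPase RAN. They were chosen by name, as nuclear transport receptors and RAN, with earlier results of these arrays known, and a probe set belonged to a member when the member was its only gene symbol. All 10 were measured, out of 16883 genes tested. Between 17 (RAN) and 45 (XPOT) probe sets of each passed a filter on dim probe sets, and none of their probe sets carried another symbol as well.

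Importins and exportins carry proteins and RNAs through nuclear pores. Importin alpha adaptors such as KPNA2 read a nuclear localisation signal and are themselves carried in by importin beta, KPNB1, while the other importins mostly bind their cargo directly. RAN gives the traffic its direction: bound to GTP inside the nucleus, it releases cargo from importins and loads it onto exportins, and in the cytoplasm its GTP is hydrolysed.

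The RNA came from cytoplasmic extracts of the human osteosarcoma line U2OS, which stably carries K294A, an inactive form of the mRNA capping enzyme switched on by doxycycline. There were 4 groups of 3 arrays. In the induced Xrn1 and the induced untreated groups, cells received doxycycline at 1 ug/ml for 24 h, and in the uninduced Xrn1 and the uninduced untreated groups they did not. In both Xrn1 groups the RNA was incubated in vitro, after removal of ribosomal RNA, with Xrn1, a 5′ to 3′ exonuclease that degrades RNAs with a 5′ monophosphate and is blocked by a cap. All groups grew in McCoy's 5A medium with serum and carry the K294A construct, the uninduced ones included; how many clones the line stands for is not stated in the labels. The question, from the series title, is which mRNAs depend on capping in the cytoplasm: an mRNA that lost its cap would be lower after Xrn1.

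Promoter sequence was available for 9 of the 10 genes, KPNB1 being the exception, and gave 11 windows of 250 bases upstream of a transcript start (RefSeq, GRCh38.p14). Single windows of 4 genes are shown. KPNA2 had a large Xrn1 difference in both states and IPO7 in uninduced cells, and RAN had the smallest in both states. XPO1 differed in its order of groups when all arrays were used, but not in every choice of arrays. Capitals mark a CCAAT box (CCAAT), a GC box (GGGCGG) or an E-box (CACGTG), searched on both strands. The windows lie at chr17:68035485-68035734 on the plus strand for KPNA2, chr11:9384402-9384651 on the plus strand for IPO7, chr2:61538357-61538606 on the minus strand for XPO1 and chr12:130871816-130872065 on the plus strand for RAN.
KPNA2: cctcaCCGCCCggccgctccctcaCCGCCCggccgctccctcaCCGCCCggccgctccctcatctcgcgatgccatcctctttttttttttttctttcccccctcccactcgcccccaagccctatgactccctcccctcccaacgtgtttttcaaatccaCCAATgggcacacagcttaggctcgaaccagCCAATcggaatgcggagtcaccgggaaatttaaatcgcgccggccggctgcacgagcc
IPO7: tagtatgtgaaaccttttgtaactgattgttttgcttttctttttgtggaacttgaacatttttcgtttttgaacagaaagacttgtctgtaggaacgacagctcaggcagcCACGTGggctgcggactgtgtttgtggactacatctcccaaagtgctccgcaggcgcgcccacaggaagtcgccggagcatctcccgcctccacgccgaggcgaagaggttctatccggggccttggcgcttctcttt
XPO1: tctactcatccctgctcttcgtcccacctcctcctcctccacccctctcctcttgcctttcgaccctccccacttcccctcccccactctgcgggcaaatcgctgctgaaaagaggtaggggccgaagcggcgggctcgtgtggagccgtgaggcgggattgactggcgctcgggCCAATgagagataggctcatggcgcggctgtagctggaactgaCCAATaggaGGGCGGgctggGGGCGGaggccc
RAN: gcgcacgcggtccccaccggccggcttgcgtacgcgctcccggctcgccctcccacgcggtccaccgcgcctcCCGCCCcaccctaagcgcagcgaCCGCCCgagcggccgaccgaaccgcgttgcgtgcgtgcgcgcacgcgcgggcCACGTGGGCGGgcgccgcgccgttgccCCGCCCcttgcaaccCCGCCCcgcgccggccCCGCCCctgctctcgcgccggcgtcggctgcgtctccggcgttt
The KPNA2 window held 2 CCAAT boxes and 3 GC boxes, the XPO1 window shown 2 of each, and the IPO7 window a single E-box. A second XPO1 window, not shown, held 1 E-box. RAN had 6 GC boxes and 1 E-box, and its E-box overlapped one of the GC boxes. Its window was 81.2% G and C, against 62.4% for KPNA2, 51.6% for IPO7, 65.2% for XPO1 and a median of 58.0% over all 35116 promoter windows. Over the 11 windows, a CCAAT box occurred in 5 and in 32% of all promoters, a GC box in 6 and in 42.6%, and an E-box in 3 and in 6.3%. The ETS motif CCGGAAG occurred in 1 window, that of XPOT, where it overlapped a GC box, and in 8.5% of all promoters. The TATA box TATAAA occurred in 0 of the 11 windows and in 10.7% of all promoters.

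Each gene value is the mean log2 value, as deposited after robust multi-array averaging (RMA), of a gene's kept probe sets, and differences are differences of these log2 values. A level depends on a gene's probe sets as well as on its RNA, so level is used below only to group genes of similar array signal, not to compare amounts of RNA between genes. Fewer cells and less RNA per cell cannot be told apart in such bulk extracts. Of the mesenchymal and bone markers, group means were 8.19 to 8.85 for COL1A1, 6.60 to 8.63 for SPARC, 6.0 to 7.79 for VIM, 3.05 to 3.88 for COL1A2, 3.11 to 3.87 for RUNX2 and 2.29 to 3.06 for ALPL. Epithelial markers had 6.14 to 7.60 for KRT8, 4.94 to 6.46 for KRT18, 3.18 to 3.67 for EPCAM and 2.51 to 3.02 for CDH1. Blood markers had 2.06 to 2.70 for PTPRC, 2.05 to 2.69 for HBB and 3.80 to 4.40 for CD3E, the liver marker ALB 2.35 to 3.09, and the neural markers SYP and GFAP 2.30 to 3.32 and 2.54 to 3.56. The markers were thus mixed: some bone genes were at low values and the keratins were not, and their part in the results was not tested. The number of bright genes differed with Xrn1: 144 to 298 genes lay above a log2 level of 6 on the induced Xrn1 arrays and 327 to 823 on the induced untreated arrays, against 110 to 151 on the uninduced Xrn1 arrays and 760 to 1114 on the uninduced untreated arrays. Some arrays did not sort by induction: induced untreated replicate 3 correlated most closely, over all genes, with uninduced untreated replicate 3 (r = 0.979), induced untreated replicate 2 with uninduced untreated replicate 1 (r = 0.894), and uninduced Xrn1 replicate 1 with induced Xrn1 replicate 2 (r = 0.938). RNGTT, the human gene of capping enzyme, did not show the induction: it averaged 2.48 ± 0.21 in induced Xrn1 and 4.00 ± 0.67 in induced untreated arrays, against 2.79 ± 0.43 in uninduced Xrn1 and 3.79 ± 0.89 in uninduced untreated arrays (SD, n = 3 each). Whether any probe set reads the K294A transcript was not tested.

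All 10 mRNAs were lower after Xrn1 than in untreated RNA, in induced and in uninduced cells. In the values as deposited, KPNA2 had the largest difference in both states and RAN the smallest. The place of KPNA2 depended on the scaling of the arrays, as described below. Because the genes were picked with these differences known, the Xrn1 values of the 10 genes are a description and carry no test. The plot of levels by array shows every value.

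**Figure D1:**
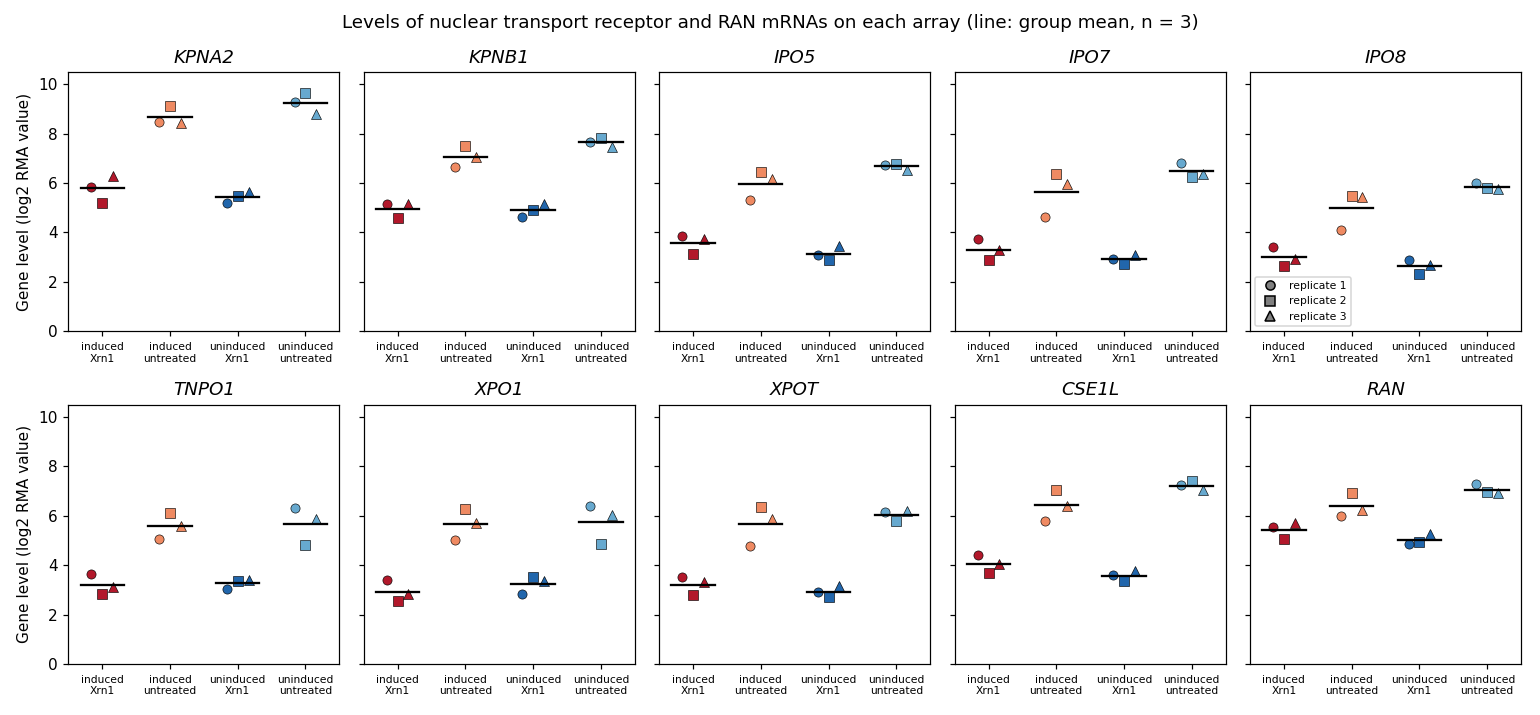
Gene level (log2 RMA value, vertical axis) of each of the 10 genes on the 12 arrays, by group; shapes mark the replicate and lines the group mean (n = 3). In each panel all Xrn1 arrays lie below all untreated arrays of the same induction state, and the second uninduced untreated array is low for TNPO1 and XPO1.

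KPNA2, the importin alpha of proliferating cells, had levels of 5.86, 5.18 and 6.30 on the induced Xrn1 arrays, against 8.47, 9.12 and 8.41 on the induced untreated arrays. In uninduced cells it had 5.19, 5.48 and 5.65 with Xrn1 and 9.27, 9.63 and 8.81 without. No Xrn1 array came near an untreated one. The difference was -2.89, a level 7.40-fold lower, in induced cells and -3.80, or 13.9-fold lower, in uninduced cells. Among all genes, ordered from the most negative difference, KPNA2 stood at place 18 in induced and at place 11 in uninduced cells.

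KPNB1, the importin beta that carries importin alpha and its cargo through the pore, had 5.17, 4.59 and 5.14 on the induced Xrn1 arrays and 6.64, 7.48 and 7.07 on the induced untreated arrays. Its levels in uninduced cells were 4.62, 4.92 and 5.15 with Xrn1, against 7.66, 7.82 and 7.48 without. The groups with and without Xrn1 stood apart in both states, by -2.10 in induced and -2.76 in uninduced cells. Both Xrn1 groups had nearly the same mean, 4.97 ± 0.33 in induced and 4.90 ± 0.27 in uninduced cells (SD, n = 3 each).

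IPO5, an importin of ribosomal proteins and histones, had 3.86, 3.14 and 3.74 on the induced Xrn1 arrays, against 5.32, 6.45 and 6.18 on the induced untreated arrays. In uninduced cells the values were 3.10, 2.89 and 3.45 with Xrn1 and 6.73, 6.76 and 6.52 without. All 3 uninduced untreated arrays lay above all 3 induced untreated ones. IPO5 was 5.28-fold lower after Xrn1 in induced cells (-2.40) and 11.5-fold lower in uninduced cells (-3.52).

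IPO7, which also imports ribosomal proteins, had 3.74, 2.87 and 3.30 on the induced Xrn1 arrays and 4.64, 6.36 and 5.96 on the induced untreated arrays. With Xrn1 the uninduced arrays gave 2.93, 2.74 and 3.10, against 6.81, 6.26 and 6.39 without. The first induced untreated array was the low one of its group, at 4.64. The Xrn1 difference was -2.35 in induced and -3.56 in uninduced cells.

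IPO8, the close relative of IPO7, had 3.42, 2.66 and 2.92 on the induced Xrn1 arrays, against 4.09, 5.48 and 5.42 on the induced untreated arrays. Uninduced arrays had 2.88, 2.32 and 2.69 with Xrn1 and 6.01, 5.79 and 5.74 without. Again the first induced untreated array was low, and the uninduced untreated values lay above all induced untreated ones. Its Xrn1 difference was -1.996 in induced and -3.22 in uninduced cells, that is 3.99-fold and 9.32-fold lower.

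TNPO1, or transportin, imports RNA-binding proteins. It had 3.64, 2.84 and 3.14 on the induced Xrn1 arrays, against 5.07, 6.12 and 5.60 on the induced untreated arrays. In uninduced cells the levels were 3.04, 3.36 and 3.41 with Xrn1 and 6.31, 4.82 and 5.86 without. The second uninduced untreated array, at 4.82, was the lowest of the 6 untreated arrays. The difference was -2.39 in both induction states.

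Among the exportins, XPO1 (CRM1) exports proteins with a leucine-rich nuclear export signal. Its levels were 3.40, 2.55 and 2.82 on the induced Xrn1 arrays, against 5.04, 6.29 and 5.72 on the induced untreated arrays. Uninduced arrays had 2.85, 3.51 and 3.37 with Xrn1 and 6.40, 4.86 and 6.02 without. As for TNPO1, the second uninduced untreated array was the lowest untreated one. XPO1 was the only one of the 10 genes with the larger difference in induced cells, -2.76 against -2.51 in uninduced cells.

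XPOT, the exportin of tRNAs, had 3.52, 2.81 and 3.33 on the induced Xrn1 arrays, against 4.80, 6.36 and 5.86 on the induced untreated arrays. The uninduced arrays gave 2.92, 2.72 and 3.15 with Xrn1 and 6.17, 5.78 and 6.19 without. With Xrn1 absent the 2 induction states overlapped, since the second induced array lay above all uninduced ones. The Xrn1 difference was -2.45 in induced and -3.12 in uninduced cells.

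CSE1L, also called CAS, returns importin alpha to the cytoplasm. On the induced Xrn1 arrays it had 4.43, 3.69 and 4.05, against 5.80, 7.06 and 6.40 on the induced untreated arrays. Uninduced cells had 3.61, 3.36 and 3.75 with Xrn1 and 7.25, 7.39 and 7.03 without. The induced untreated values spread more (SD 0.63) than the uninduced untreated ones (SD 0.18). CSE1L differed by -2.36 in induced cells, 5.15-fold lower, and by -3.65 in uninduced cells, 12.6-fold lower, the second most negative value of the 10 genes after KPNA2.

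RAN had 5.56, 5.08 and 5.69 on the induced Xrn1 arrays, against 6.01, 6.91 and 6.23 on the induced untreated arrays. In uninduced cells it had 4.87, 4.96 and 5.28 with Xrn1 and 7.29, 6.97 and 6.90 without. The groups stood apart in both states but by a narrow margin in induced cells, where the highest Xrn1 array was at 5.69 and the lowest untreated array at 6.01. RAN was 1.92-fold lower in induced cells (-0.94) and 4.06-fold lower in uninduced cells (-2.02), and the difference of -0.94 was the closest to 0 of the 10, ahead of IPO8 at -1.996.

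Over the 10 genes, the median Xrn1 difference was -2.38 in induced and -3.17 in uninduced cells, beside medians over all genes tested of 0.10 in induced and -0.27 in uninduced cells. The Xrn1 and untreated arrays did not overlap for any of the 10 genes in either state. At any distance, they did not overlap in the same direction for 22.6% of all genes in induced and 33.6% in uninduced cells. In the other direction they did not overlap for 28.3% and 11.2%. Since the genes were picked with these values known, nothing is read from the members' count. Bright genes had more negative differences in general. The median was -0.72 in induced and -1.49 in uninduced cells over the 1063 genes with a mean level above 5. Set against genes of a similar mean level, 7 of the 10 genes in induced and 6 in uninduced cells lay below the 5th percentile of their level bin. These counts also come from genes picked with the Xrn1 values known, so nothing is read from them. RAN was near the middle: its bin of 251 genes had a median of -0.65 in induced and -1.46 in uninduced cells. The part of the bright-gene numbers given above in these differences was not tested.

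**Figure D2:**
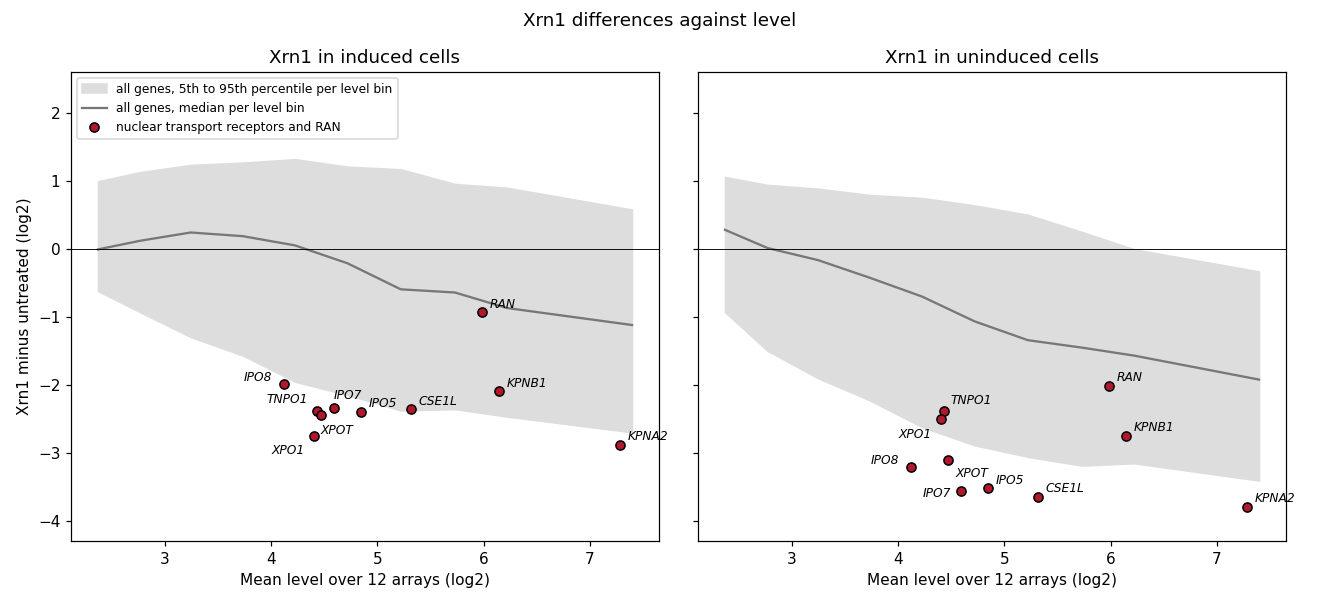
Xrn1 minus untreated difference (log2, vertical axis) against mean level over 12 arrays (log2, horizontal axis) in induced and uninduced cells; the grey band spans the 5th to 95th percentile of all genes in each level bin and the grey line their median. Most of the 10 genes lie at or below the lower edge of the band, while RAN and KPNB1 lie inside it in both panels. The 10 genes were picked with these differences known.

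When the arrays were scaled again with cyclic loess, which evens out differences that depend on level, the Xrn1 differences of the 10 genes stayed negative, with a median of -2.03 in induced and -2.02 in uninduced cells. The differences of KPNB1 became -1.23 in induced and -1.12 in uninduced cells, and those of KPNA2 -1.68 and -1.86. KPNA2 was then not the most negative of the 10 genes in either state. RAN kept only -0.13 in induced and -0.44 in uninduced cells. The order of the 2 states then turned for KPNB1 as well as for TNPO1 (-2.24 in induced, -1.47 in uninduced cells) and XPOT (-2.28 in induced, -2.18 in uninduced cells), and stayed as it was for XPO1 (-2.62 in induced, -1.61 in uninduced cells).

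The Xrn1 difference in induced cells minus that in uninduced cells was, over all arrays, positive for 9 of the 10 genes and ranged from -0.25 (XPO1) to 1.29 (CSE1L), with TNPO1 at 0.01. It was 1.22 for both IPO7 and IPO8, 1.12 for IPO5, 1.08 for RAN, 0.91 for KPNA2, 0.67 for XPOT and 0.66 for KPNB1, each with a standard error of 0.48. Its median over the 10 genes was 1.00, beside 0.70 over all genes and 0.76 over the 1063 genes with a mean level above 5. Centring each array on its median gene took the median of the 10 genes to 0.53 and that of all genes to 0.23, and with cyclic loess these were 0.24 and 0.15. A positive value here means a smaller difference from untreated RNA in induced cells. Over all genes the test of this value called 20.6% higher and 1.23% lower, or 3479 and 208 genes. That count was not stable: it was 0 and 0 with each gene's own spread, 171 and 10 with sample number as a random block, and between 46 (without induced Xrn1 replicate 3) and 7736 higher (without induced untreated replicate 3) when 1 array was left out. Because of the choice of genes, nothing is read from the members' values.

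The low XPO1 and TNPO1 values of the second uninduced untreated array were seen in most of their probe sets, and were not particular to these genes. XPO1 was lower on that array than the mean of the other 2 uninduced untreated arrays in 33 of 34 kept probe sets, by a median of -1.41, and TNPO1 in 36 of 44, by a median of -1.38. Other members went the other way on the same array. KPNA2 was higher in 28 of 30 probe sets (median 0.70), KPNB1 in 19 of 27 (median 0.39), CSE1L in 23 of 32 (median 0.37) and IPO5 in 21 of 34 (median 0.25). RAN was higher in 10 of 17 and IPO8 in 16 of 31, while XPOT was lower in 28 of 45 and IPO7 in 21 of 35. Leaving out both arrays of that sample number gave Xrn1 differences in uninduced cells of -3.10 for XPO1 and -2.86 for TNPO1. The difference between the induction states then became 0.34 for XPO1, a sign opposite to that with all arrays, and 0.47 for TNPO1. Of the other nuclear transport genes, described below, each one on chromosomes 1 to 8 was also lowest of its group on the second uninduced untreated array. KPNA4 had 4.02 there against 5.85 and 5.48, and TNPO3 3.49 against 5.37 and 4.97. Genes on other chromosomes went both ways: XPO6 had 6.38 against 6.18 and 6.03, and RANBP6 3.81 against 4.52 and 4.32. The cause was not tested.

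Single probe sets, which read parts of a transcript, mostly moved with the gene mean. KPNA2 was lower after Xrn1 in 29 of its 30 kept probe sets in induced cells, IPO7 in 33 of 35, IPO8 in 26 of 31 and CSE1L in 30 of 32, and in uninduced cells all kept probe sets of these 4 genes were lower. XPOT was lower in 43 of 45 probe sets in induced and 44 in uninduced cells, IPO5 in 33 of 34 in both, XPO1 in 31 and 32 of 34, and TNPO1 in 41 and 39 of 44. KPNB1 had 23 of 27 lower in induced and 24 in uninduced cells, and RAN had 12 of 17 in induced and 14 in uninduced cells.

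Most exceptions in KPNB1 and RAN were neighbours in probe set number; positions in the transcripts were not analysed here. In KPNB1, probe sets 3724783, 3724784 and 3724785 were higher after Xrn1 in both states, by 0.61, 1.32 and 0.68 in induced and by 0.50, 0.15 and 0.28 in uninduced cells, and the next one, 3724786, differed by 0.70 in induced and -0.12 in uninduced cells. The median over all 27 KPNB1 probe sets was -2.42 in induced and -2.90 in uninduced cells. In RAN, probe sets 3438029, 3438030 and 3438031 were higher by 0.86, 2.03 and 2.27 in induced and by 0.97, 0.02 and 0.24 in uninduced cells, against a median over its 17 probe sets of -1.38 in induced and -2.45 in uninduced cells. Another 2 RAN probe sets were higher in induced cells only: 3438028 with 1.44 in induced and -1.19 in uninduced cells, and 3438037, which lies apart from the others, with 0.04 and -1.44.

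Some members drew on probe sets from separate stretches of probe set numbers, all annotated to the one symbol. RAN had 13 in a first stretch, with a mean Xrn1 difference of -0.63 in induced and -1.96 in uninduced cells, and 4 in a second, with -1.95 and -2.23. For TNPO1 the largest stretch of 36 gave -2.26 in induced and -2.08 in uninduced cells, and 2 stretches of 4 gave -3.02 and -3.89, and -2.88 and -3.71. XPOT had 30 probe sets at -2.46 in induced and -3.52 in uninduced cells, and 15 at -2.43 and -2.31. Both larger stretches of KPNA2, of 15 and 14, gave similar values: -2.69 and -3.00 in induced and -3.69 and -3.88 in uninduced cells. Whether a stretch reads a related sequence elsewhere was not tested. The part of the second uninduced untreated array, described above, in the differences between stretches was not tested either.

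**Figure D3:**
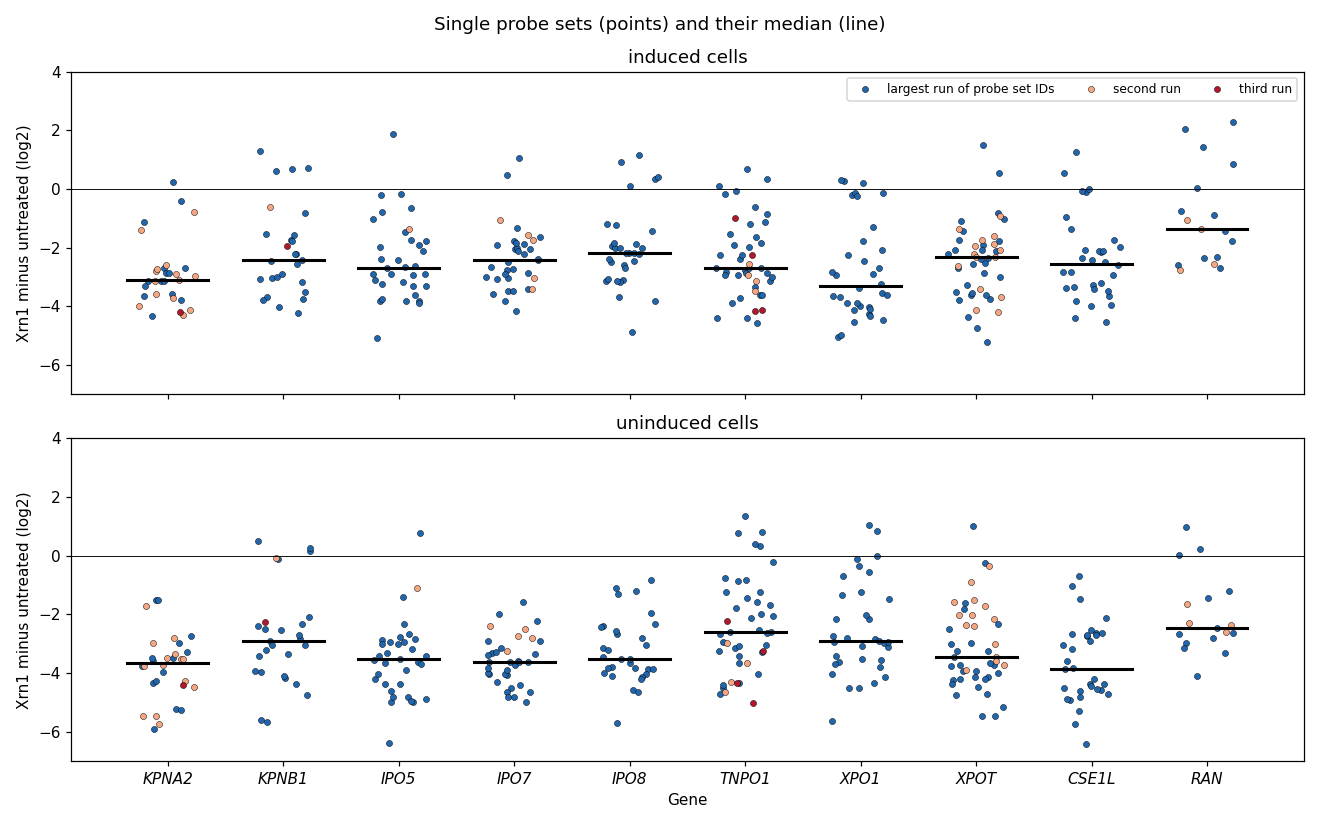
Xrn1 minus untreated difference (log2, vertical axis) of every kept probe set of the 10 genes in induced and uninduced cells; colours mark stretches of neighbouring probe set numbers and black lines the median. Most points lie below 0, and the probe sets of RAN and KPNB1 include some above 0 in both panels.

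Induction of K294A was the comparison tested on the 10 genes. If all groups spread alike, the average of the induction differences with and without Xrn1 is independent, in this balanced design, of the Xrn1 contrasts known when the genes were picked. The spreads were not all alike: IPO7 had an SD of 0.90 in induced untreated and 0.43 in induced Xrn1 arrays, and KPNA2 0.39 and 0.56. No member changed by the test of that average. All 10 averages were slightly negative, from -0.26 for KPNB1 (95% confidence interval -0.73 to 0.21) to -0.05 for XPOT (-0.52 to 0.43). The adjusted p was 1 for each (limma, Benjamini-Hochberg over all genes). The count of 0 members called stood against 0% of all genes called in either direction; 0 members and 81 genes had an unadjusted p under 0.05, and with each gene's own spread in place of the common one no gene was called either. The members' median was -0.15, beside -0.02 over all genes and -0.07 over genes with a mean level above 5. Averaged over both RNA treatments, the 3 induced samples all lay below the 3 uninduced ones for KPNB1 and CSE1L, as they did for 1.66% of all genes, while 2.52% lay apart with induced samples higher.

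Without Xrn1, all 10 genes had lower means in induced cells, and none passed the test. IPO8 differed by -0.85 (95% confidence interval -1.52 to -0.18, adjusted p = 0.113, limma), IPO7 by -0.84 (-1.51 to -0.17, adjusted p = 0.115), CSE1L by -0.80 (-1.47 to -0.13, adjusted p = 0.121), IPO5 by -0.69 (-1.36 to -0.02, adjusted p = 0.154) and RAN by -0.67 (-1.34 to -0.004, adjusted p = 0.16). These 5 had an unadjusted p under 0.05, as did 5201 of all 16883 genes, and with each gene's own spread 3 of the 10 did. Differences of -0.59 for KPNB1, -0.57 for KPNA2, -0.38 for XPOT, -0.08 for XPO1 and -0.07 for TNPO1 had adjusted p values of 0.211 to 0.906. Over all genes and with all arrays, 0.0296% were called lower and 0.0118% higher. Induced and uninduced arrays did not overlap for IPO5 and IPO8, and 17.4% of all genes were apart in that direction and 5.82% in the other. The median of the 10 genes was -0.63, beside -0.35 over all genes and -0.51 over genes with a mean level above 5. Induced untreated replicate 1, which had 327 genes above a level of 6, was the lowest induced untreated array for 9 of the 10 genes; KPNA2 was lowest in replicate 3. These counts rested on 1 array: without replicate 3 of the induced untreated group, 6405 of all 16883 genes were called lower and 517 higher. IPO8 (adjusted p = 0.024, limma) and IPO7 (adjusted p = 0.0462) were then the 2 of the 10 members called, a smaller share than that of all genes.

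With Xrn1, induced cells had the higher mean for 8 of the 10 genes, and again none passed. CSE1L had the largest difference, 0.49 (95% confidence interval -0.18 to 1.16, adjusted p = 0.543, limma), followed by IPO5 with 0.43 and RAN with 0.41. TNPO1 at -0.06 and XPO1 at -0.32 were the 2 with lower means. Of all genes, 0.0533% were called higher and 0.00592% lower, and 0 of the 10 members had an unadjusted p under 0.05, against 1534 of all genes. Fitting only these 2 groups called 991 genes higher and 43 lower, none of them a member. The groups overlapped for all 10 members, while 31.3% of all genes lay apart with induced cells higher and 3.13% with them lower. The members' median was 0.36, beside 0.28 over all genes. Both single-state comparisons share their arrays with the Xrn1 differences, and they are given beside the average for that reason.

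**Figure D4:**
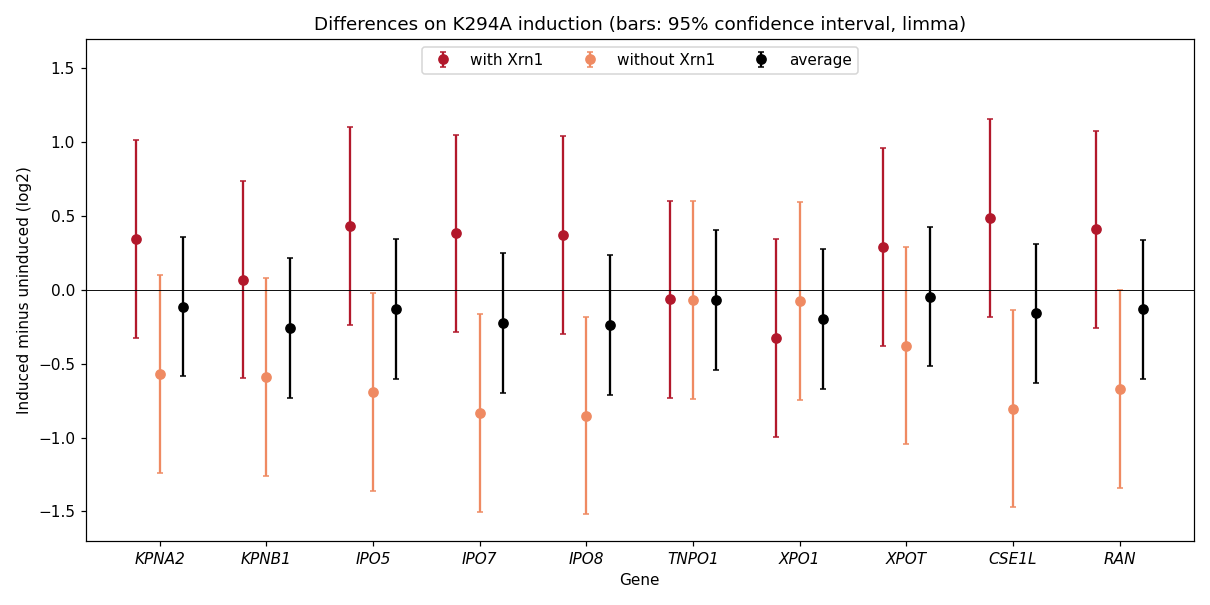
Induced minus uninduced difference (log2, vertical axis) of the 10 genes in Xrn1-treated RNA, in untreated RNA and averaged over both; points are limma estimates and bars 95% confidence intervals. Averages lie between -0.26 and -0.05 with intervals that all include 0, and the values with Xrn1 lie above those without for 9 genes, XPO1 being the exception.

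The other measured genes of nuclear transport were 14 importins, 8 exportins and mRNA export receptors and 6 regulators of the RAN cycle. They are the rest of the pathway after the 10 genes were taken from it with Xrn1 results known, so their counts describe the pathway and are not independent evidence of a direction. In induced cells 13 of these 28 fell after Xrn1 and 2 rose (limma, adjusted p under 0.05), while 17.8% of all genes fell and 21.6% rose. The falls were found in 8 of the 14 importins, 4 of the 8 exportins and mRNA export receptors and 1 of the 6 RAN regulators. In uninduced cells 20 of the 28 fell and 1 rose, beside 31.8% of all genes that fell and 7.24% that rose: 11 importins, 6 export receptors and 3 RAN regulators fell. With each gene's own spread, 5 fell in induced and 18 in uninduced cells. The medians in induced cells were -1.19 for importins, -0.88 for export receptors and 0.13 for RAN regulators, and in uninduced cells -1.49, -1.56 and -0.78.

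Among the importins, KPNA3, an importin alpha, averaged 2.90 ± 0.24 in induced Xrn1 and 4.78 ± 0.59 in induced untreated arrays, and 2.47 ± 0.42 in uninduced Xrn1 and 5.43 ± 0.17 in uninduced untreated arrays (SD, n = 3 each). It fell after Xrn1, with a difference of -1.88 in induced cells (limma, adjusted p = 1.31e-06) and -2.96 in uninduced cells (adjusted p = 3.8e-16). KPNA4, another importin alpha, had differences of -2.43 in induced cells (limma, adjusted p = 2.21e-10) and -2.12 in uninduced cells (adjusted p = 8.03e-09). These p-values rest on an SD of 0.418 common to all genes, while the SD of KPNA4 reached 0.965 in uninduced untreated arrays. IPO11 and IPO9, importins of the beta family, fell in induced cells by limma's test, with differences of -1.97 (adjusted p = 3.72e-07) and -1.76 (adjusted p = 7.2e-06). KPNA7 was the single riser in uninduced cells, at 3.38 ± 0.16 with Xrn1 and 2.18 ± 0.32 without (difference 1.20, adjusted p = 0.00189, limma). Its uninduced untreated arrays, at 2.10, 1.90 and 2.53, lay close to the probe set filter of 2.04, and the second was the lowest. Of its 11 probe sets, 7 were kept. KPNA7 is named because it is a single gene, after its values were seen.

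XPO6, the exportin of actin, had group means of 4.09 ± 0.29 in induced Xrn1, 5.43 ± 0.52 in induced untreated, 3.25 ± 0.34 in uninduced Xrn1 and 6.20 ± 0.17 in uninduced untreated arrays (SD, n = 3 each). It fell after Xrn1, with a difference of -1.34 in induced cells (limma, adjusted p = 0.000855) and -2.95 in uninduced cells (adjusted p = 4.34e-16). NXF1, the main export receptor of mRNA, differed by -0.73 in induced cells (adjusted p = 0.0766, limma) and fell in uninduced cells, with a difference of -2.46 (adjusted p = 1.91e-11). Its partner NXT1 rose by 1.30 in induced cells (limma, adjusted p = 0.00117) and differed by -0.34 in uninduced cells (adjusted p = 0.465). RANGRF, a RAN-binding protein, was the other riser in induced cells (0.85, adjusted p = 0.0365, limma). With each gene's own spread, 0 of the 28 were called higher in induced cells. NXT1 had an SD of 0.887 in induced untreated arrays, against the common SD of 0.418. A rise here is a difference of scaled log2 values, and amounts of RNA were not measured. NUTF2, which carries RAN back into the nucleus, was the RAN regulator that fell in both states, with differences of -1.06 in induced cells (limma, adjusted p = 0.00873) and -1.77 in uninduced cells (adjusted p = 2.12e-06). NXT1, RANGRF and NUTF2 were named after their values were seen.

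**Figure D5:**
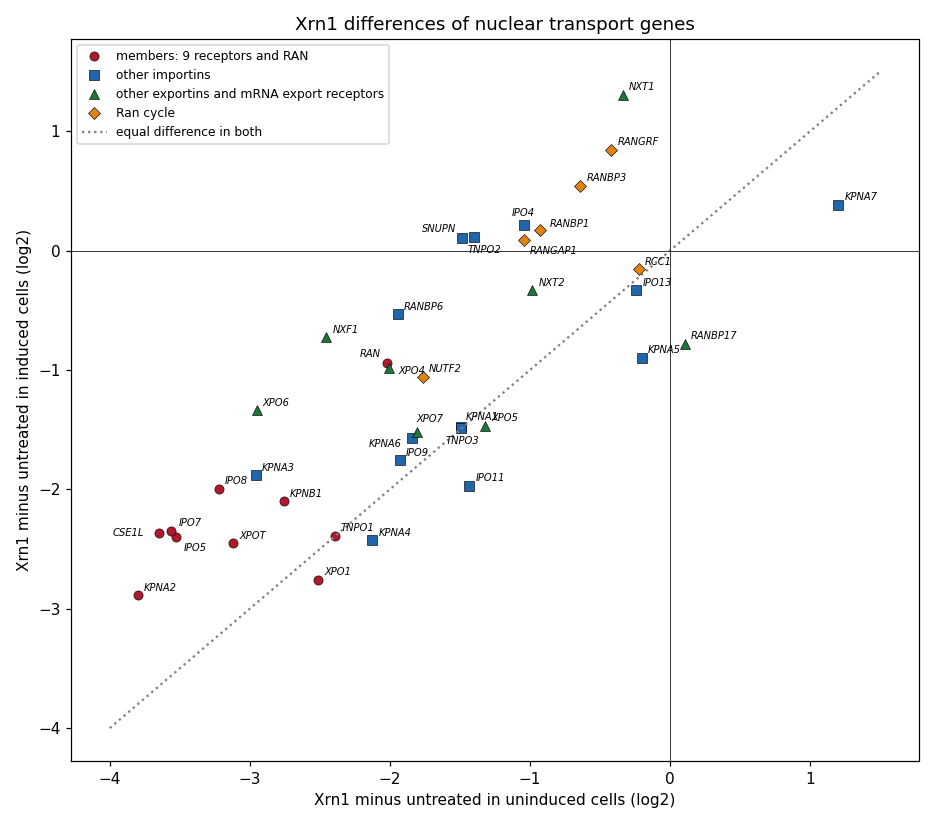
Xrn1 minus untreated difference in induced cells (log2, vertical axis) against that in uninduced cells (log2, horizontal axis) for the 10 genes and 28 other nuclear transport genes, 1 point a gene; the dotted line marks equal differences. Most importins and exportins lie below 0 on both axes, and NXT1 and RANGRF lie above 0 on the vertical axis.

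By the same test as for the 10 genes, with all arrays in 1 fit, limma called 0 of the 28 other genes for induction on average, without Xrn1 and with Xrn1, and the counts at an unadjusted p under 0.05 were 0, 11 and 3. With each gene's own spread they were 0, 13 and 3, and 0 were called. Without induced untreated replicate 3, 12 of the 28 were called lower in untreated RNA, when 6405 of all genes were, and a fit of only the groups compared called 2 of the 28 higher with Xrn1, when 991 of all genes were.

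The 10 mRNAs moved together over the 12 arrays. Each gene's correlation with the mean of the other 9 ranged from 0.949 (XPO1) to 0.995 (IPO5), and the lowest between any pair was 0.895, for RAN and XPO1. These values describe 12 arrays that share the Xrn1 treatment, the normalisation and the culture, and that split by treatment. The 10 genes were also picked with their Xrn1 differences known, so nothing is read from these correlations. The 5 other genes whose levels followed the mean of the 10 most closely were SMU1, a splicing factor (r = 0.9982), ERGIC2, a protein of the secretory pathway (r = 0.9955), APPBP2 (r = 0.9953), DDX3X, an RNA helicase (r = 0.9948), and BMPR1A, a receptor for bone morphogenetic proteins (r = 0.9948). SMU1 had group means of 3.45 in induced Xrn1, 5.66 in induced untreated, 3.09 in uninduced Xrn1 and 6.18 in uninduced untreated arrays. DDX3X had 3.60, 6.55, 3.52 and 7.10 in the same groups.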

How the data were processed

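The deposited table holds log2 values of probe sets for 12 arrays. The submitters' processing notes name RMA and oligo; no version is given in the sources used here. Probe sets were named from the platform annotation: 357604 of 1411399 had 1 symbol, 15322 several and 1038473 none, and 2966 of 19560 symbols were updated (RefSeq, GRCh38.p14). Of those with 1 symbol, 258175 had a mean over 12 arrays above the median of 2.04 and were kept. Genes with at least 3 (16883) were fitted with limma 3.58.1 (R 4.3.3) over 4 group means, Benjamini-Hochberg adjusted over all genes, threshold 0.05. limma gave all genes a common SD of 0.418 (8 residual degrees of freedom), so standard errors are 0.34 for a simple difference, 0.24 for the induction average and 0.48 for the difference of differences. The prior degrees of freedom were infinite, so p-values of this fit rest on the common SD and not on a gene's own spread. The script was tested on simulated data.

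Replicates are numbered in accession order within a group; titles of both CM1X and CM2X say replicate 2. Per the labels these are biological replicates, with no word on separate cultures, so p-values measure only the spread between these samples, which may be technical. Array number limits the precision, and no read depth applies.

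The 10 genes, the 3 lists of other nuclear transport genes and the markers were chosen with earlier results of these data known. Named genes are the 10; for Xrn1 in each state and for induction, the 4 other transport genes with the smallest p among those called; the 5 genes most correlated with the mean of the 10; and RNGTT. Alternatives were the median of probe sets, no filter, an upper quartile filter (2.76), centring, cyclic loess, own spread, only the groups compared, blocks, leaving out each array, leaving out sample number 5 and, chosen after the values were seen, only each member's largest stretch of probe set numbers (gaps up to 1000).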

Additional observations from a re-analysis of the deposited data

Results flagged for a closer look

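For 8 of the 28 other nuclear transport genes, the Xrn1 difference was tested to differ between induced and uninduced cells (limma, adjusted p under 0.05), as it did upward for 20.6% of all genes. In every case the value in induced minus that in uninduced cells was positive: 1.731 for NXF1 (adjusted p = 0.0158, limma), 1.64 for NXT1 (0.0196), 1.614 for XPO6 (0.0205), 1.592 for SNUPN (0.0213), 1.511 for TNPO2 (0.0259), 1.41 for RANBP6 (0.0323), 1.266 for RANGRF (0.0454) and 1.257 for IPO4 (0.0463). NXF1 averaged 4.15 ± 0.20 in induced Xrn1 and 4.87 ± 0.60 in induced untreated arrays, against 3.26 ± 0.24 in uninduced Xrn1 and 5.71 ± 0.10 in uninduced untreated arrays (SD, n = 3 each). All 8 genes called were annotated to chromosomes 9 to 20. Those of the 28 on chromosomes 1 to 8 were lowest of their group on the second uninduced untreated array. Their values ranged from -0.89 (RANBP17) to 0.29 (XPO7), and the part of that array in this split was not tested. The 8 calls depended on the fit. None of the 28 was called with sample number, which treated and untreated arrays share, as a random block (all genes 171 higher and 10 lower, beside 3479 and 208), with each gene's own spread, with cyclic loess or without both arrays of sample number 5, and centring left 1 called higher and 2 lower. When 1 array was left out, 0 to 14 were called higher: 0 without induced untreated replicate 1, induced Xrn1 replicate 1 or 3 or uninduced Xrn1 replicate 2, 3 to 5 without induced untreated replicate 2, induced Xrn1 replicate 2 or uninduced untreated replicate 2 or 3, and 14 without induced untreated replicate 3. RANBP1, a RAN regulator, had 1.102 (adjusted p = 0.0719, limma): all its induced Xrn1 arrays lay above the uninduced Xrn1 ones, while all its induced untreated arrays lay below the uninduced untreated ones, and by that pattern alone the difference was not tested.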

How the results depend on the processing

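No member was called for induction under any alternative that kept all arrays, and 0 to 2 were called without Xrn1 when 1 array was left out; the 2 stood beside 6405 of 16883 genes called lower. The members' Xrn1 differences stayed negative in all settings. In uninduced cells their median became -2.81 after centring, -2.02 with cyclic loess and -3.37 with only the largest stretch of probe set numbers; the median of induction became -0.17 without Xrn1 and 0.023 with Xrn1 under cyclic loess, and that of the difference between states 0.53 after centring and 0.24 with cyclic loess. Of the other transport genes, 2 rose after Xrn1 in uninduced cells with cyclic loess; in induced cells 1 rose with the median of probe sets, 1 with sample number as a random block and 0 with own spread, where 5 fell. Centring moved the median of all genes, without Xrn1 on induction, to -0.08 from -0.35, and over Xrn1 in uninduced cells to 0.09 from -0.27; of all genes, 3930 were then called higher and 4294 lower in uninduced cells, and 3695 and 3692 with cyclic loess, beside 1223 and 5367.

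Signs of small induction differences turned, and none of these passed the test. On average these were KPNA2 with cyclic loess (0.02) and RAN with the median of probe sets (0.29). Without Xrn1 they were TNPO1 after centring (0.20), with cyclic loess (0.34) and on its largest stretch (0.054); XPO1 with the median of probe sets (0.036), centring (0.19) and loess (0.33); XPOT with loess (0.03); and RAN with the median of probe sets (0.069). With Xrn1 they were KPNA2 (-0.10) and KPNB1 (-0.049) with the median of probe sets, KPNB1 after centring (-0.13) and with loess (-0.23), TNPO1 with the median of probe sets (0.10) and the upper quartile filter (0.02), and XPOT with loess (-0.075). The cause was not tested.

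Leaving out 1 array gave members' medians of -0.29 to -0.01 for induction on average, -0.86 to -0.37 without Xrn1 and 0.16 to 0.57 with Xrn1; -2.70 to -2.08 for Xrn1 in induced and -3.25 to -3.04 in uninduced cells; and 0.74 to 1.24 for the difference between states. Of the other transport genes, 10 to 15 fell and 0 to 3 rose in induced cells, and 17 to 20 fell in uninduced cells. The riser count in induced cells, 2 with all arrays, became 0 without induced untreated replicate 2 and 1 without induced untreated replicate 1, any induced Xrn1 replicate or uninduced Xrn1 replicate 3; the 2 members called without induced untreated replicate 3 were IPO7 and IPO8. Ranges that crossed 0 were, on average, -0.244 to 0.037 for KPNA2, -0.245 to 0.037 for IPO5, -0.404 to 0.027 for IPO7, -0.277 to 0.093 for TNPO1 and -0.22 to 0.17 for XPOT; without Xrn1, -0.49 to 0.25 for TNPO1, -0.53 to 0.25 for XPO1 and -0.72 to 0.06 for XPOT; with Xrn1, -0.07 to 0.26 for KPNB1 and -0.28 to 0.12 for TNPO1.

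Deviations of induced and uninduced arrays with the same replicate number correlated at -0.639 to 0.12, and these numbers were not taken to pair them. Treated and untreated arrays of 1 induction state and replicate share a sample number, and their deviations correlated at -0.708 to 0.125. The main fit left that pairing out, and the fit with sample number as a random block took it in. With the replicate block, 0 members were called for induction, and over all genes 1 rose and 0 fell without Xrn1 and 7 rose and 0 fell with Xrn1, beside 2 and 5, and 9 and 1, without the block. Arrays of the same sample number had a consensus correlation of -0.233.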
